A study of Mus musculus with 8 samples.

Results

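Ly6Chi monocytes, which the blood delivers to injured tissue as its inflammatory monocyte, were sorted from the livers of 4 control mice after an overdose of acetaminophen, and their polyadenylated RNA was sequenced. These 4 animals were every sample labelled control among the 8 of the study, and all 15336 genes of the count table were read in them. Each mouse was a male C57BL/6 animal of 8 weeks with the genotype Commd10fl/fl, in which both copies of Commd10 carry recombination sites, and no Cre is named for it. After a fast of 12 h it received 300 mg/kg acetaminophen into the peritoneum, and its monocytes were taken 24 h later from a perfused liver digested with collagenase. The controls were littermates, matched for weight, of the Cre-bearing mice. Those mice are not described here and enter the comparisons only in a check that fits all 8 animals. The animals carry the numbers 10, 11, 2 and 3. The sample titles spell all 4 alike, while the descriptions write animals 10 and 11 with a capital letter and animals 2 and 3 with a small one. Nothing in the labels says what parts the pairs.

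Ly6Chi monocytes leave the bone marrow along gradients of ligands of the receptor Ccr2, enter damaged tissue within hours, and there either die or turn into macrophages. In the liver, acetaminophen is converted to a reactive product that kills hepatocytes around the central veins, and the arriving monocytes release chemokines and proteases, take up dead cells and later give rise to repair macrophages. No uninjured animal was among the samples, so no level below can be set against that of an uninjured liver. Every level is that of cells from an injured liver after digestion and sorting. What injury and isolation each gave to it was not tested.

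The libraries held 13327665, 14030289, 14433305 and 14734814 counts in animals 10, 11, 2 and 3, and 15012 to 15161 genes had a count in each. Levels are given as counts per 1000000 counts of the library, scaled by library composition (CPM), which gives a gene's share of the counts. The levels of different genes are compared per length of their exons (RPKM, CPM per kilobase of exon). A value with ± is a mean and its SD over the 4 animals (n = 4). A gene was called expressed at 1 CPM or more in every animal, and at the floor at 3 counts or fewer in every animal, which is 0.201 to 0.227 CPM. By that rule 10905 of 15336 genes were expressed (71.1%), 4151 lay in between and 280 were at the floor, 26 of them with no count in any of the 4. With no control cell type beside the sort, fewer cells of a type and less RNA per cell cannot be told apart in any of these values.

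The cells carried the genes taken here to define them. Lyz2, the macrophage lysozyme (ENSMUSG00000069516, GRCm38 chromosome 10, 117277331 to 117282321), had 8948 and 11042 CPM in animals 10 and 11, against 14790.3 and 16469 CPM in animals 2 and 3. Csf1r, the receptor for the growth factor that keeps monocytes alive, had 2775 and 2764 CPM in animals 10 and 11, against 3322 and 3280.1 CPM in animals 2 and 3. Ccr2, the receptor that draws these cells out of the marrow (ENSMUSG00000049103, GRCm38 chromosome 9, 124101950 to 124113557), had 1674 and 1348 CPM in animals 10 and 11, against 1654 and 1738 CPM in animals 2 and 3. The pairs did not overlap for Lyz2 and Csf1r, where animals 10 and 11 had the lower values, and overlapped for Ccr2. Ly6c2, which encodes the surface protein used to name the cells (ENSMUSG00000022584, GRCm38 chromosome 15, 75108158 to 75111970), had 289.9 and 232 CPM in animals 10 and 11, against 324 and 358 CPM in animals 2 and 3, again with no overlap and the lower values in animals 10 and 11. For Itgam, the alpha chain of the integrin CD11b (ENSMUSG00000030786, GRCm38 chromosome 7, 128062640 to 128118491), the values were 299 and 291 CPM in animals 10 and 11, against 274 and 299 CPM in animals 2 and 3, and the pairs overlapped. Another gene model overlaps Itgam, and reads in both may have gone uncounted. The share of all genes whose pairs do not overlap is not given here, and with 2 against 2 animals such a split has a chance of 0.333. In the edgeR quasi-likelihood test of the pairs given below, Lyz2 was called lower (adjusted p = 0.0254). Csf1r and Ly6c2 were not called (adjusted p = 0.101 and 0.085). Per length, Lyz2 stood at 9736 ± 2608 RPKM, Csf1r at 526 ± 53.3 RPKM, Ccr2 at 237 ± 25.8 RPKM, Ly6c2 at 109.8 ± 19.6 RPKM and Itgam at 57.9 ± 2.39 RPKM.

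Of 20 genes listed for Ly6Chi monocyte identity, 19 were expressed, Ly6c1 being the exception. Among them were Chil3, a chitinase-like lectin, at 1542 ± 297 RPKM, and Plac8, a small cysteine-rich protein of myeloid cells, at 674 ± 215 RPKM. Genes that textbooks assign to the patrolling Ly6Clo monocyte were present as well, with 12 of 12 measured members expressed. Nr4a1, a nuclear receptor that Ly6Clo monocytes need, stood at 542 ± 279 RPKM. Itgal, the alpha chain of LFA-1, stood at 198 ± 69.0 RPKM, Cx3cr1, the fractalkine receptor, at 173 ± 76.1 RPKM, Treml4, a receptor for dead cells, at 154 ± 66.2 RPKM, and Ace, the angiotensin-converting enzyme, at 108 ± 61.6 RPKM. All 16 genes of a list for macrophage maturation were expressed too, led by Apoe, the lipid carrier, at 2736 ± 695 RPKM, Lgmn, a lysosomal endopeptidase, at 880.0 ± 156 RPKM, and the complement subunit C1qb at 701 ± 181 RPKM. Bulk counts do not show whether 1 cell or different cells held these messages. The 5 defining genes, which were set in advance, were expressed, and so were the genes listed for Ly6Clo monocytes and macrophages. The shares expressed were 95% of the identity list, 100% of the Ly6Clo list and 100% of the macrophage list, beside 71.1% of all genes. These counts alone do not tell such cells apart.

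Genes of other cells in the liver were lower by summed level, as the plot of marker lists by animal shows. The neutrophil list summed to 650.3 and 508 CPM in animals 10 and 11, against 429 and 552 CPM in animals 2 and 3, mostly Csf3r, a receptor that monocytes also carry, and the collagenase Mmp8. S100a8 and S100a9, the calcium-binding proteins that fill neutrophils, had 11.3 ± 7.59 CPM and 3.93 ± 3.599 CPM. Of 14 neutrophil genes with a row, 6 were expressed and 8 lay in between, among them Mpo, the peroxidase of granules, at 0.174 ± 0.0852 CPM. Hepatocyte genes summed to 291 and 399 CPM in animals 10 and 11, against 149.8 and 255 CPM in animals 2 and 3, with Alb, the plasma albumin, the highest member. Kupffer cell genes summed to 133 and 259 CPM in animals 10 and 11, against 327 and 328 CPM in animals 2 and 3, but the highest members were Hpgd, which degrades prostaglandins, and Spic, a factor of iron-handling macrophages. The defining Kupffer genes Clec4f and Timd4, a lectin and a receptor for dead cells, had 1.85 ± 0.784 CPM and 0.208 ± 0.142 CPM. B cell genes summed to 85.9 and 115 CPM in animals 10 and 11, against 155 and 134 CPM in animals 2 and 3, and T cell genes to 48.0 and 49.2 CPM in animals 10 and 11, against 15.2 and 14.01 CPM in animals 2 and 3. The T cell sum was mainly Il7r, a cytokine receptor, and Cd3e, a chain of the T cell receptor complex, had 0.636 ± 0.172 CPM. Sinusoidal endothelial genes summed to 38.9 and 147 CPM in animals 10 and 11, against 30.6 and 31.6 CPM in animals 2 and 3. Animal 11 stood apart there, with 26.2 CPM of Stab2, a scavenger receptor of these vessels, beside 5.83 CPM in animal 10, 2.46 CPM in animal 2 and 2.75 CPM in animal 3. The part of these cells in the levels below was not tested.

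**Figure D1:**
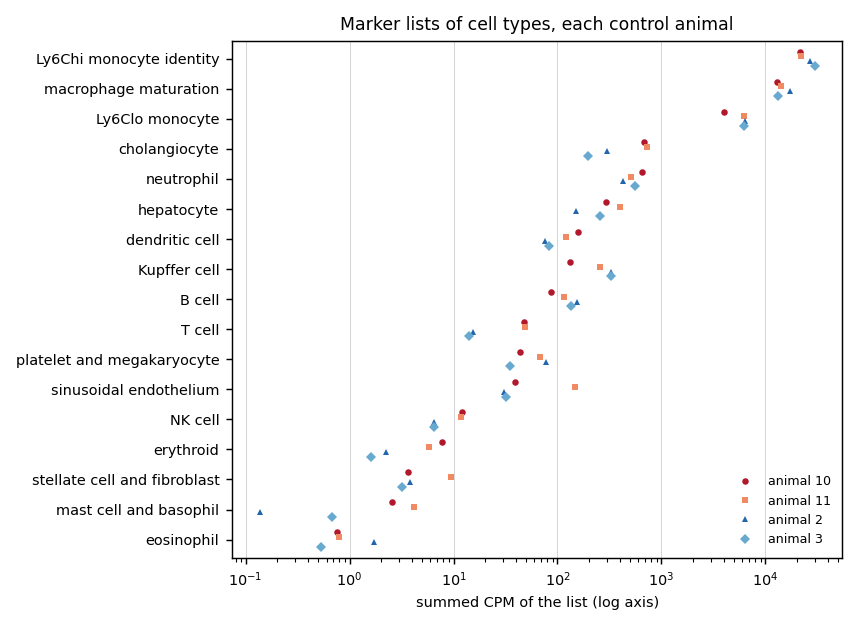
Summed CPM of each marker list (log axis) in animals 10, 11, 2 and 3, a point for each animal. The Ly6Chi identity list lies at 21435 to 29819 CPM in the 4 animals, the T cell list at 14.01 to 49.2 CPM, and animal 11 alone reaches 147 CPM for sinusoidal endothelium. The cholangiocyte sum is almost all Spp1, which monocytes also make. Lyz2, the macrophage lysozyme, alone gives 8948 to 16469 CPM of the Ly6Chi identity sum.

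Close relatives of the defining genes lay far lower. Lyz1, the intestinal copy of lysozyme, had 23.9 and 34.0 CPM in animals 10 and 11, against 38.0 and 43.4 CPM in animals 2 and 3, and the mean RPKM of Lyz2 was 353 times that of Lyz1. Ly6c1, known from endothelial cells, had 0.303 and 0.217 CPM in animals 10 and 11, against 0.274 and 0.939 CPM in animals 2 and 3, and the mean RPKM of Ly6c2 was 425 times that of Ly6c1. The transcripts of each pair are alike enough that reads matching both copies may have been discarded or assigned to either, so the levels of all 4 carry that uncertainty. The upstream bases of these 4 genes are shown because the pairs share long stretches while their levels lie far apart. Each run gives the 250 bases before the start that lies farthest upstream in RefSeq, 5′ to 3′ on the strand of the gene, from the build GRCm38.p6. Capitals mark AGGAAGT or its reverse complement, the core that ETS factors such as Spi1 bind, found on both strands and free of overlap with another match.
Lyz2 (chr10:117282273-117282522, minus strand): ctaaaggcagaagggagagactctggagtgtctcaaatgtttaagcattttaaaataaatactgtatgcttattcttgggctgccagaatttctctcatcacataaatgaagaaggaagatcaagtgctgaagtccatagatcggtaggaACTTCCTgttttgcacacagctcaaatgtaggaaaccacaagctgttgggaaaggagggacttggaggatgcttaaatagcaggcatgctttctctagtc
Lyz1 (chr10:117292869-117293118, minus strand): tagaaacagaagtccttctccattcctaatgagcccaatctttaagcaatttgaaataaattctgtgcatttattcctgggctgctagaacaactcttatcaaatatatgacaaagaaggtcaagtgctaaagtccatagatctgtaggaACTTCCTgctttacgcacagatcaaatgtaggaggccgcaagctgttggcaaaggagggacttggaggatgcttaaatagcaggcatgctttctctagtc
Ly6c2 (chr15:75111972-75112221, minus strand): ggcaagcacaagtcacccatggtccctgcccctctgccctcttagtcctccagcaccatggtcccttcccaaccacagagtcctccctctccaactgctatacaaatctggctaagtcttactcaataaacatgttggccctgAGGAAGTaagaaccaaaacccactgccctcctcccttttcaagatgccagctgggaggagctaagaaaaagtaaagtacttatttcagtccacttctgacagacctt
Ly6c1 (chr15:75048838-75049087, minus strand): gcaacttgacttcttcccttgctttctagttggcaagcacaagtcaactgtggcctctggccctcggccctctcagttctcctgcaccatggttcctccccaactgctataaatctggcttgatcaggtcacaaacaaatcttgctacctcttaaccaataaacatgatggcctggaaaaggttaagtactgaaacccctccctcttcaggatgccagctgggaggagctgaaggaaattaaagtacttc
Lyz2 and Lyz1 were identical at 205 of 260 aligned positions (78.8%), and both hold the core 93 bases before the start. Ly6c2 and Ly6c1 were identical at 171 of 290 aligned positions (59.0%), and within these bases Ly6c2 holds the core once and Ly6c1 does not. Of 27025 mouse genes with such a window, 7.77% hold the core on either strand, as do 8.10% of the 8374 expressed genes that could be matched by symbol and 6 of 17 matched identity genes (35.3%). A match is a description of the letters only, and the motif was picked with the sequences in view.

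Relatively few genes made up most of the message. The 10 most abundant genes held 7.295% of all counts, the 100 most abundant held 23.1%, and 679 genes held 50% of them. In each animal 1903 genes reached 100 CPM, which is 12.4% of the table and 70.3% of the counts. Protein-coding genes took 98.8%, and the genes of the mitochondrial chromosome took 1.92% to 2.10% in the 4 libraries. Psap, the precursor of the saposins that help lysosomes break down sphingolipids (ENSMUSG00000004207, GRCm38 chromosome 10, 60277627 to 60302597), took the largest mean share of the counts with 17498 and 17914 CPM in animals 10 and 11 and 16532 and 15435 CPM in animals 2 and 3. Lyz2 took the next share, and more than Psap in animal 3. Ctsb, a lysosomal cysteine protease, had 8416 and 9013 CPM in animals 10 and 11 and 7156 and 5459 CPM in animals 2 and 3. Apoe had 4235 and 5369 CPM in animals 10 and 11 and 7791 and 6004 CPM in animals 2 and 3, and Fth1, the heavy chain of the iron store ferritin, had 4443 and 5775 CPM in animals 10 and 11 and 3706 and 3842 CPM in animals 2 and 3. Zfp36, whose protein binds cytokine messages and speeds their decay, had 6402 and 7609.8 CPM in animals 10 and 11, against 2452 and 2044 CPM in animals 2 and 3, so both animals of the first pair lay more than 2-fold above both of the other. Fn1, the matrix protein fibronectin, had 6153 and 4234 CPM in animals 10 and 11 and 2743 and 3686 CPM in animals 2 and 3, and Mpeg1, the pore-forming protein of the phagosome, had 3659 and 4158 CPM in animals 10 and 11 and 4425 and 4328 CPM in animals 2 and 3.

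Per length, the order changed. Lyz2 led with 9736 ± 2608 RPKM, ahead of Psap with 6139 ± 402 RPKM and B2m, the light chain of class I molecules, with 4716 ± 581 RPKM. The cysteine protease Ctss, which trims the invariant chain of class II molecules, had 2306 ± 121 RPKM, and that chain itself, Cd74, had 2029 ± 315 RPKM. Tyrobp and Fcer1g, the signalling adaptors shared by many activating receptors, had 1978 ± 270.5 RPKM and 1629 ± 174 RPKM. Cd68, a lysosomal membrane protein of macrophages, had 1413 ± 121 RPKM. Genes of ribosomal proteins, which have many near-identical copies, held 1.14% to 1.28% of the counts and are uncertain for that reason.

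**Figure D2:**
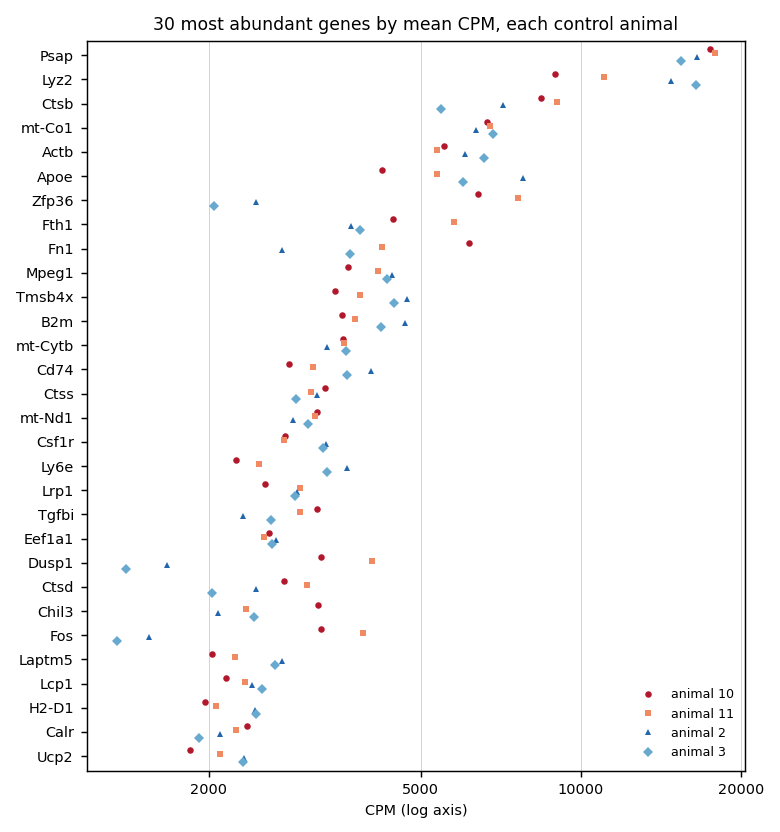
CPM (log axis) of the 30 most abundant genes by mean CPM, a point for each of animals 10, 11, 2 and 3. Psap lies at 15435 to 17914 CPM in all 4 animals, while Zfp36, Dusp1 and Fos part animals 10 and 11, on the right, from animals 2 and 3.

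Listed receptors numbered 261 in the table, of which 201 were expressed (77.0%, beside 71.1% of all genes), and 54 others had no row in the table analysed here. Among CC receptors, Ccr2 was the highest at 237 ± 25.8 RPKM, followed by Ccrl2, an atypical receptor that presents chemerin, at 181 ± 171 RPKM, and by Ccr1, which binds Ccl3 and Ccl5, at 129 ± 33.7 RPKM. SDs of Ccrl2 and Ccr2 overlapped, and Ccrl2 was the higher of the pair in animal 11. Ccr7, the receptor that guides cells to lymph nodes, had 1.39 ± 1.22 RPKM, and Ccr3, the eotaxin receptor, had 0.290 ± 0.159 RPKM. In the other branch, Cx3cr1 at 173 ± 76.1 RPKM and Cxcr4, the receptor for the marrow chemokine Cxcl12, at 165 ± 54.8 RPKM stood far above Cxcr3, an inflammatory receptor of lymphocytes, at 1.74 ± 0.807 RPKM. Cxcr4 was the higher of the leading pair in animals 10 and 11, and Cx3cr1 in animals 2 and 3. Cxcr2, by which neutrophils sense Cxcl1 and Cxcl2, had 0.878 ± 0.750 RPKM, and Ackr3, a decoy for Cxcl12, was at the floor.

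Among growth factor receptors of the myeloid line, Csf1r was followed by Csf2ra, the alpha chain of the GM-CSF receptor, at 240.3 ± 14.4 RPKM, by Csf3r, the G-CSF receptor, at 100.1 ± 11.3 RPKM, and by the shared beta chain Csf2rb at 62.4 ± 4.64 RPKM. The stem cell receptors Flt3 and Kit had 1.27 ± 0.633 RPKM and 0.179 ± 0.185 RPKM, the first expressed and the other in between. Median CV, the SD as a percent of the mean, was 10.14% over the 7 expressed members, beside 12.3% over all expressed genes and 9.48% over genes with a mean of 100 CPM or more.

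For cytokines, 23 of 33 measured interleukin and interferon receptor genes were expressed, a share close to the 71.1% of all genes, as is that of the TNF receptors below. The interferon gamma receptor chain Ifngr1 led with 263 ± 36.7 RPKM, ahead of Il10ra, the chain specific to the anti-inflammatory cytokine Il10, with 134 ± 23.4 RPKM, the type I interferon chain Ifnar2 with 77.5 ± 14.6 RPKM and the second gamma chain Ifngr2 with 71.6 ± 6.27 RPKM. Il4ra and Il13ra1, the chains that bind the type II cytokines, had 39.4 ± 5.75 RPKM and 32.4 ± 5.53 RPKM. Il1r1, the signalling receptor of interleukin 1, Il1rl1, the alarmin receptor ST2, and Osmr, the chain specific to oncostatin M, had 0.146 ± 0.162 RPKM, 0.0212 ± 0.0297 RPKM and 0.0151 ± 0.0146 RPKM, and none of the 3 was expressed. The decoy Il1r2 had 1.83 ± 1.22 RPKM. Of TNF receptors, 14 of 20 were expressed, led by Tnfrsf1b at 325 ± 52.4 RPKM and Tnfrsf1a at 142 ± 21.1 RPKM, the pair that binds Tnf, and Tnfrsf9, a co-stimulator of T cells, had 0.0714 ± 0.0381 RPKM. Tgfbr1 and Tgfbr2, which together bind TGF-beta, had 44.6 ± 7.54 RPKM and 22.3 ± 4.53 RPKM, and the BMP receptor Bmpr1a had 0.0389 ± 0.0191 RPKM.

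Sensors of microbes and damage were broadly present. Of 16 Toll-like receptors and cofactors 15 were expressed (93.8%, beside 71.1% of all genes). They were led by Unc93b1, the chaperone of the endosomal receptors, at 338 ± 60.6 RPKM and Cd14, the carrier of lipopolysaccharide, at 330.0 ± 190.3 RPKM. Cd14 was the higher of these in animals 10 and 11. The lipopeptide receptor Tlr2 had 108 ± 27.5 RPKM, Tlr13, which reads bacterial ribosomal RNA, 92.3 ± 7.80 RPKM, and Tlr4, the lipopolysaccharide receptor, 14.1 ± 1.46 RPKM. Among the rest, Tlr3, a receptor for double-stranded RNA, stood at 1.27 ± 0.468 RPKM and Tlr12, a profilin receptor, at 0.271 ± 0.112 RPKM. C-type lectins were led by Clec4a1 and Clec4a3, paired receptors of monocytes, at 386 ± 17.5 RPKM and 362 ± 25.6 RPKM, and by the beta-glucan receptor Clec7a at 327 ± 127 RPKM. In animals 10 and 11 Clec7a was the highest lectin. Clec4e, which senses material of dead cells, had 77.7 ± 40.2 RPKM, and Clec9a, a dendritic cell receptor for exposed actin, 0.355 ± 0.126 RPKM. Of cytosolic sensors, 21 of 22 were expressed (95.5%, beside 71.1% of all genes). Gsdmd, the pore former of pyroptosis, stood at 75.5 ± 2.15 RPKM and Mefv, the sensor pyrin, at 52.9 ± 12.3 RPKM. Casp1, the inflammasome protease, stood at 52.6 ± 5.32 RPKM, and Nlrp3, the sensor of potassium loss, at 25.4 ± 5.77 RPKM. Nlrp12, a related regulator, had 0.0242 ± 0.0256 RPKM.

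Receptors for antibodies and dead cells were high. Fcgr3, an activating receptor for immune complexes, had 313 ± 38.6 RPKM, Fcgr1, the high-affinity IgG receptor, 181 ± 20.4 RPKM, Fcgr4, another activating receptor, 132 ± 48.3 RPKM, and the inhibitory Fcgr2b 129 ± 66.4 RPKM. The lipoprotein and debris receptor Lrp1 stood at 160.2 ± 10.8 RPKM, Axl, a receptor for bridged phosphatidylserine, at 148 ± 46.1 RPKM, its relative Mertk at 29.8 ± 5.62 RPKM, and the scavenger receptor Msr1 at 91.8 ± 6.75 RPKM. Marco, a scavenger receptor of resident macrophages, and Timd4 lay in between at 1.62 ± 0.955 RPKM and 0.0957 ± 0.0653 RPKM. Among integrins, Itgb2, the beta chain shared by LFA-1 and CD11b, led at 527 ± 23.7 RPKM, and Itgae, the chain of epithelial lymphocytes, was at 0.0540 ± 0.0400 RPKM. Sirpa, which reads the signal of CD47 not to engulf, had 389 ± 16.2 RPKM, and Trem2, a lipid receptor of repair macrophages, 58.0 ± 4.99 RPKM. Lilrb4a and Lilr4b, near-identical paired receptors, had 0.0888 ± 0.0691 RPKM and 185 ± 116 RPKM, and reads that match both make each uncertain. C5ar1, the anaphylatoxin receptor, stood at 206 ± 26.8 RPKM, the nucleotide receptor P2ry6 at 136 ± 16.1 RPKM, and Ptafr, the receptor of platelet-activating factor, at 104 ± 14.7 RPKM. Ptafr and the chemerin receptor Cmklr1, at 92.0 ± 1.67 RPKM, swapped order in animal 2, and by the mean when length was taken from the longest transcript.

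**Figure D3:**
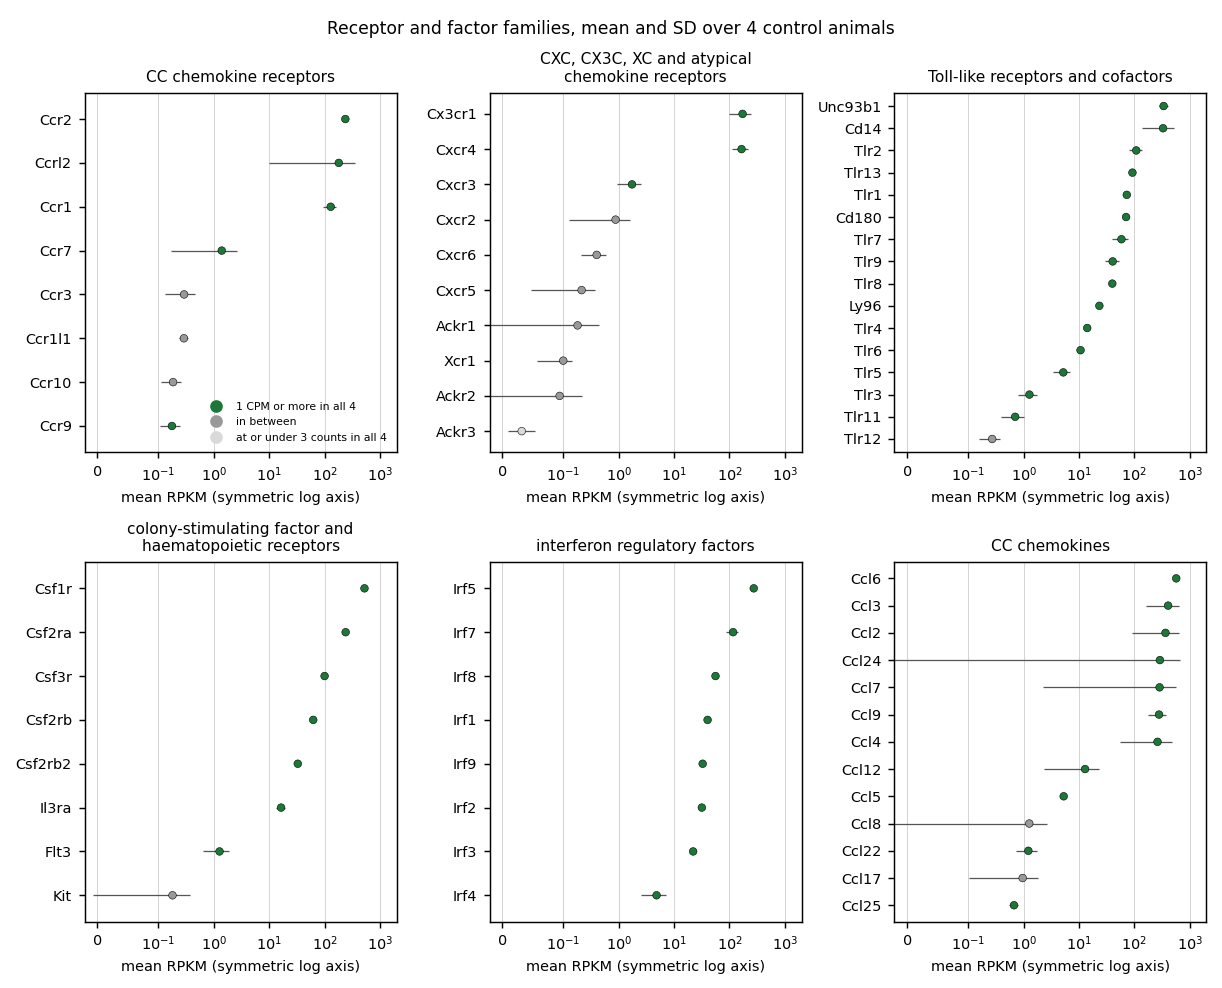
Mean RPKM (symmetric log axis, linear below 0.1) of the members of 6 families, with bars for the SD over 4 animals. Colour gives the class of each gene, and in each chemokine receptor panel the leading members, such as Ccr2 at 237 RPKM and Cx3cr1 at 173 RPKM, lie over 100-fold above the lowest. Genes without a row, or not reported here, are not drawn.

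Of 149 listed transcription factors with a row, 128 were expressed (85.9%, beside 71.1% of all genes). By mean level the first was Fos, the immediate early partner in AP-1, at 1067 ± 536 RPKM, then Cebpb, a factor Ly6Clo monocytes depend on, at 877 ± 170.0 RPKM, Junb, an AP-1 subunit, at 843 ± 476 RPKM, and Nr4a1. Fos was the highest factor in animals 10 and 11, and Cebpb in animals 2 and 3. Spi1, the ETS factor PU.1 that sets myeloid fate, had 753 and 752 CPM in animals 10 and 11 and 883 and 995 CPM in animals 2 and 3, and Cebpa, which drives early myeloid growth, had 414 and 392 CPM in animals 10 and 11 and 388 and 359.6 CPM in animals 2 and 3. Factors of other lineages were low, with 4 of 15 expressed: Spic at 21.9 ± 6.45 RPKM, Bach2, a repressor in lymphocytes, at 2.10 ± 0.570 RPKM, Spib, an ETS factor of B and plasmacytoid cells, at 0.990 ± 0.265 RPKM, and Tcf7, a T cell factor, at 0.775 ± 0.345 RPKM. The T cell factor Tbx21 was at the floor, and Hnf4a, which runs the hepatocyte programme, had 0.0910 ± 0.111 RPKM. Gfi1 and Myb, factors of granulocytic and immature cells, had 0.278 ± 0.198 RPKM and 0.0430 ± 0.0341 RPKM.

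All 8 interferon regulatory factors with a row were expressed, in the order Irf5 at 274 ± 17.6 RPKM, Irf7 at 116 ± 27.9 RPKM, Irf8 at 56.0 ± 5.94 RPKM and Irf1 at 40.3 ± 1.55 RPKM. Irf5 drives inflammatory cytokines, Irf7 type I interferons, Irf8 monocyte fate and Irf1 interferon gamma targets. Their median CV was 9.71%. Irf4, a factor of alternative activation, stood lowest at 4.82 ± 2.25 RPKM. Of STAT factors, 7 of 7 were expressed, and Stat6, which serves interleukin 4, was first at 102 ± 6.50 RPKM, with Stat4, which serves interleukin 12, last at 1.01 ± 0.450 RPKM. The NF-kB inhibitor Nfkbia, itself induced by NF-kB, had 533 ± 323 RPKM, and the subunit Rela had 47.7 ± 5.46 RPKM. Nfe2l2, the antioxidant regulator NRF2, had 119 ± 27.4 RPKM. Among nuclear receptors, the oxysterol receptor Nr1h3 led at 82.4 ± 14.6 RPKM, Pparg, a lipid-sensing receptor, had 37.3 ± 7.25 RPKM, and the hepatocyte receptors Nr1h4 and Nr1i3 had 0.101 ± 0.0830 RPKM and 0.0967 ± 0.0245 RPKM. Xbp1, the factor of the unfolded protein response, stood at 126 ± 15.8 RPKM, and Hif1a, the hypoxia factor, at 41.7 ± 7.81 RPKM. Klf2, a factor of quiescence, had 144 ± 58.0 RPKM and Klf6, a factor induced by injury, 91.3 ± 20.1 RPKM, with Klf6 the higher in animals 10 and 11 and Klf2 the higher in animals 2 and 3, and Klf4, a factor of monocyte development, had 48.9 ± 3.86 RPKM.

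Of 208 listed secreted factors with a row, 137 were expressed (65.9%, beside 71.1% of all genes), and none of the 10 interferons had a row in the table analysed here. Several CC chemokines stood high, and their order differed by animal, with Ccl24 first in animal 10, Ccl3 in animal 11 and Ccl6 in animals 2 and 3. Ccl6 and Ccl9, mouse ligands of Ccr1, had 570.2 ± 55.5 RPKM and 279 ± 100.9 RPKM, Ccl3 and Ccl4, the macrophage inflammatory proteins, 407 ± 244 RPKM and 262 ± 207 RPKM, and Ccl2 and Ccl7, ligands of Ccr2, 365 ± 275 RPKM and 285 ± 283 RPKM. The SD of Ccl7 was nearly as large as its mean. Ccl24, an eotaxin, had 289 ± 366 RPKM. Ccl17 and Ccl22, dendritic cell chemokines for Ccr4, had 0.962 ± 0.860 RPKM and 1.22 ± 0.498 RPKM. The neutrophil attractant Cxcl2 had 267 ± 250.5 RPKM and the platelet chemokine Pf4, also made by macrophages, 71.0 ± 27.8 RPKM, while Cxcl12 had 0.1199 ± 0.0458 RPKM and Cxcl5, another neutrophil attractant, was at the floor.

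Il1b, the inflammatory interleukin 1, was the highest cytokine at 435 ± 375 RPKM, then Osm, oncostatin M, at 131 ± 120.1 RPKM and Il1rn, the antagonist of interleukin 1, at 50.2 ± 22.4 RPKM. Il12b and Il23a, subunits of T cell polarising cytokines, had 0.146 ± 0.247 RPKM and 0.0644 ± 0.129 RPKM, and Csf3, the growth factor G-CSF, was at the floor. Tnf, the prototype of its family, had 79.2 ± 60.2 RPKM, and was its highest member in animals 10 and 11 and below Tnfsf12, the ligand TWEAK, in animals 2 and 3, with Lta, a lymphocyte ligand, at 0.169 ± 0.108 RPKM. Tgfb1 had 181 ± 21.3 RPKM and Tgfbi, a matrix protein induced by TGF-beta, 736 ± 103 RPKM, while the activin subunit Inhba had 0.215 ± 0.193 RPKM. Grn, progranulin, led the growth factors at 486 ± 54.5 RPKM, and Vegfa, the angiogenic factor, Igf1, insulin-like growth factor, and Hgf, the hepatocyte mitogen, had 9.86 ± 9.36 RPKM, 10.0 ± 5.73 RPKM and 2.92 ± 0.626 RPKM. Egf, the epidermal growth factor, had 0.0473 ± 0.0261 RPKM.

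Matrix and protease genes included Lgals3, galectin 3, at 1129.8 ± 342 RPKM, Fn1 at 359.8 ± 123 RPKM, and Thbs1, thrombospondin, at 209 ± 124 RPKM, whereas the collagen genes Col1a1 and Col3a1 had 0.0824 ± 0.101 RPKM and 0.0796 ± 0.0858 RPKM. Of 22 metalloproteinases and inhibitors 13 were expressed, with Adam8, a sheddase of leukocytes, at 108 ± 74.4 RPKM, Mmp14, the membrane-type collagenase, at 47.1 ± 10.8 RPKM, and Mmp8 at 45.9 ± 12.8 RPKM. Mmp9, the gelatinase of neutrophils, had 0.571 ± 0.169 RPKM, and Mmp2, the gelatinase of fibroblasts, 0.245 ± 0.0809 RPKM. Cathepsins were led by Ctss, Ctsb and Ctsd, an aspartic protease of lysosomes, at 2306 ± 121 RPKM, 1241 ± 259.7 RPKM and 1095 ± 188 RPKM, and the neutrophil protease Ctsg had 0.252 ± 0.129 RPKM. The classical complement starter was made in 3 chains, C1qa, C1qb and C1qc, at 299.6 ± 102 RPKM, 701 ± 181 RPKM and 203 ± 62.2 RPKM, and C3, the central component, had 198 ± 48.1 RPKM. The terminal component C9 had 0.434 ± 0.251 RPKM. Coagulation factor F10 stood at 207 ± 136 RPKM, the transglutaminase F13a1 at 115 ± 8.82 RPKM, and the initiator F3, tissue factor, at 0.0504 ± 0.0512 RPKM.

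Of 56 listed effector genes with a row, 49 were expressed (87.5%, beside 71.1%). The phagocyte oxidase was expressed, with Cyba and Cybb, the membrane subunits, at 701 ± 30.1 RPKM and 252 ± 61.9 RPKM, and the cytosolic subunits Ncf1 and Ncf4 at 113 ± 13.9 RPKM and 134 ± 16.5 RPKM. Nos2, the inducible nitric oxide synthase, was at the floor, with no animal above 3 counts. Arg1, which competes with it for arginine, had 773 ± 1024 CPM, a spread wider than its mean. S100a4, S100a6 and S100a11, calcium-binding proteins of migrating cells, had 384 ± 49.6 RPKM, 256 ± 27.9 RPKM and 250.0 ± 37.2 RPKM. Ly6e, an interferon-induced surface protein, led the Ly6 family at 773 ± 176 RPKM.

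Several ligands and receptors stood at unlike levels. Osm was expressed and Osmr was not, Il1b was the leading cytokine while Il1r1 lay in between, and Cxcl2 was expressed while its receptor Cxcr2 was not. Ccl24 was expressed and its receptor Ccr3 was not. In contrast, Ccl2 and Ccr2, Il10 and Il10ra, Tnf and Tnfrsf1b, and Tgfb1 with Tgfbr1 and Tgfbr2 were each expressed on both sides.

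The 4 animals were alike for most genes. Over 10905 expressed genes the median CV was 12.3%, it was under 10% for 4398 genes (40.3%) and over 50% for 310 genes (2.84%). The highest animal exceeded the lowest more than 2-fold for 1128 genes (10.34%). Median CV was 19.8% for genes of 1 to 10 CPM, where counting error alone gives 13.1%, and 9.39% for genes of 100 to 1000 CPM and 11.0% at 1000 CPM or more, where counting error gives 2.00% and 0.670%. Among genes with a mean of 100 CPM or more, the median CV was 22.8% over 59 secreted factors, 16.1% over 95 receptors, 14.4% over 65 transcription factors and 15.1% over 23 effectors, beside 9.48% over all 2202 such genes. These are descriptions of lists chosen with earlier results known. Over 43 families of at least 2 members, the member with the highest mean RPKM was the highest in each of the 4 animals for 31.

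The 10 steadiest genes of at least 100 CPM were Chmp4b, an ESCRT subunit, Supt6, an elongation factor, Tax1bp1, an autophagy receptor, Sgta, a co-chaperone, Clptm1, a membrane protein, Atp6v1f, a proton pump subunit, Polr2a, the large subunit of RNA polymerase II, Prpf38b, a splicing factor, Map4, a microtubule protein, and Grb2, a signalling adaptor. Grb2 had 287 and 286 CPM in animals 10 and 11 and 292 and 289 CPM in animals 2 and 3. Polr2a had 302 and 300.5 CPM in animals 10 and 11 and 297 and 303 CPM in animals 2 and 3. The most variable were Arg1, Ccl24, Ptgs2, the inducible prostaglandin synthase, Mrc1, the mannose receptor, Sdc4, a heparan sulphate proteoglycan, Ccl7, Plk2, a stress kinase, Ccrl2, Cxcl2 and Osm. All 10 were high in animals 10 and 11, where 7.75% of all genes tested were called higher and 6.81% lower. The plot of the members that vary most and least by animal shows both ends.

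**Figure D4:**
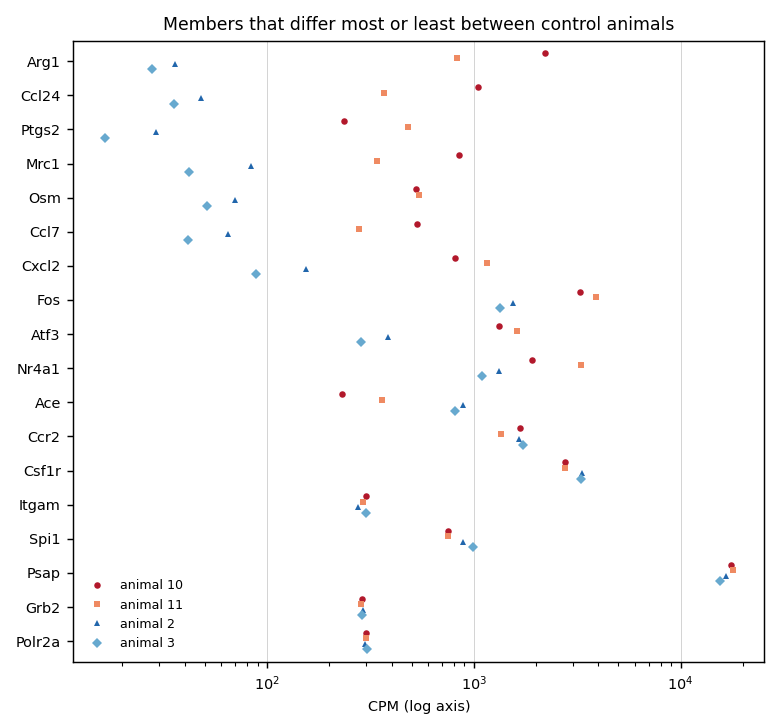
CPM (log axis) of 18 genes in animals 10, 11, 2 and 3, a point for each animal. Arg1 lies at 2203 and 825 CPM in animals 10 and 11 and at 35.8 and 27.8 CPM in animals 2 and 3, while Ccr2, Itgam, Psap, Grb2 and Polr2a keep all 4 animals close together.

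The spread followed the numbering of the animals. Across 10905 genes the Pearson correlation of log2 CPM was 0.990 between animals 10 and 11 and 0.993 between animals 2 and 3, against 0.969 to 0.977 for the 4 pairs drawn across. Within 2-fold of each other lay 98.8% of genes in animals 10 and 11, 99.3% in animals 2 and 3, and 94.1% to 96.1% across. The pairs were set by the spelling of the descriptions, and animals 10 and 11 were compared with animals 2 and 3 by the edgeR quasi-likelihood test. The fold change is animals 10 and 11 over animals 2 and 3. The correlations above come from the same counts, so the test is no separate evidence that the pairs differ. Of 12338 genes tested, 956 were higher (7.75%) and 840 lower (6.81%) at an adjusted p under 0.05. The labels do not state what parts the pairs, so these differences cannot be told apart from anything else that does. The adjusted p-values measure the spread between 2 animals a pair, and an exact permutation test of a single value cannot go below 0.333 with 2 against 2. The counts fell when animal 10, 2 or 3 was left out, and rose when animal 11 was left out. Each such fit leaves 1 animal in a pair, and its spread rests on the other pair alone. The change in the counts therefore does not measure the weight of the animal left out.

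Arg1, the arginase that turns arginine to ornithine, had the largest increase in animals 10 and 11 among called genes with a mean log2 CPM of 4 or more. It had 2203 and 825 CPM in animals 10 and 11, against 35.8 and 27.8 CPM in animals 2 and 3 (log2 fold change 5.57 ± 0.49 SE, adjusted p = 0.0027). Animal 10 was highest and the pairs lay far apart. Slc7a2, which imports arginine, had 169 and 64.8 CPM in animals 10 and 11, against 8.00 and 7.58 CPM in animals 2 and 3 (log2 fold change 3.90 ± 0.46 SE, adjusted p = 0.00594). In total 7 of 9 genes of arginine and polyamine metabolism were higher (beside 7.75% of all genes) and none lower (beside 6.81%), Odc1, the first enzyme from ornithine to polyamines, with 51.8 and 52.3 CPM in animals 10 and 11, against 23.8 and 18.4 CPM in animals 2 and 3 (log2 fold change 1.30 ± 0.13 SE, adjusted p = 0.00421). The median log2 fold change of that list was 0.82, beside -0.01 over all genes tested.

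The other large increases at that level included signals. Ccl24 had 1047 and 368 CPM in animals 10 and 11, against 47.7 and 35.5 CPM in animals 2 and 3 (log2 fold change 4.09 ± 0.49 SE, adjusted p = 0.00594). Ptgs2 had 235 and 479 CPM in animals 10 and 11, against 29.1 and 16.4 CPM in animals 2 and 3 (log2 fold change 3.97 ± 0.40 SE, adjusted p = 0.00409). Animal 10 was the highest for Ccl24 and animal 11 for Ptgs2. Osm, which acts on hepatocytes and stromal cells, had 525 and 542 CPM in animals 10 and 11, against 70.2 and 51.4 CPM in animals 2 and 3 (log2 fold change 3.13 ± 0.15 SE, adjusted p = 0.000558). Mrc1, which takes up mannosylated proteins, had 851 and 342 CPM in animals 10 and 11, against 83.3 and 41.8 CPM in animals 2 and 3 (log2 fold change 3.25 ± 0.49 SE, adjusted p = 0.011). Plk2 and Cish, a feedback inhibitor of cytokine receptors, were the remaining 2 of the 8 largest, at log2 fold changes of 3.40 and 3.19. No animal of either pair crossed into the other for any of these genes, which follows from choosing them by their difference between the pairs. Fold changes were larger still for some genes under that level, whose values in animals 2 and 3 rest on few counts. Retnla, a resistin-like protein induced by interleukin 4, had 26.6 and 9.70 CPM in animals 10 and 11, against 0.479 and 0 CPM in animals 2 and 3 (log2 fold change 6.20 ± 0.84 SE, adjusted p = 0.00827). Cxcl1, which attracts neutrophils, had 42.9 and 88.7 CPM in animals 10 and 11, against 2.60 and 0.603 CPM in animals 2 and 3 (log2 fold change 5.36 ± 0.54 SE, adjusted p = 0.0041). Cdh1, the adhesion molecule E-cadherin, had 107 and 38.8 CPM in animals 10 and 11, against 1.03 and 1.48 CPM in animals 2 and 3 (log2 fold change 5.85 ± 0.62 SE, adjusted p = 0.00463), and Mgl2, a galactose-binding lectin of alternatively activated macrophages, had 37.7 and 14.5 CPM in animals 10 and 11, against 1.16 and 0.671 CPM in animals 2 and 3 (log2 fold change 4.82 ± 0.58 SE, adjusted p = 0.00596). These 4 were picked after their values were seen, and animal 10 was the highest for all but Cxcl1.

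Among secreted factors 58 of 170 tested were higher (34.1%, beside 7.75% of all genes) and 8 lower (4.71%, beside 6.81%). The number lower was 16 without animal 11, 5 without animal 2, 11 without animal 3 and 9 without animal 10. In the CC chemokines 7 of 11 tested were higher and 0 lower, with a median log2 fold change of 1.56. Ccl2, the main ligand of Ccr2, had 817 and 507 CPM in animals 10 and 11, against 187 and 148 CPM in animals 2 and 3 (log2 fold change 1.98 ± 0.23 SE, adjusted p = 0.0058). Ccl6 had 1159.6 and 1036 CPM in animals 10 and 11, against 956 and 943 CPM in animals 2 and 3 and was not called (adjusted p = 0.183). Of interleukins, 9 of 15 were higher and 4 lower. Il1b had 899 and 1814 CPM in animals 10 and 11, against 342 and 262 CPM in animals 2 and 3 (log2 fold change 2.17 ± 0.32 SE, adjusted p = 0.0101), whereas Il18, an interferon gamma inducer, had 12.7 and 16.3 CPM in animals 10 and 11, against 25.7 and 22.9 CPM in animals 2 and 3 (log2 fold change -0.75 ± 0.15 SE, adjusted p = 0.0262). Vegfa, with 40.8 and 99.4 CPM in animals 10 and 11, against 15.04 and 13.7 CPM in animals 2 and 3, was among 8 of 22 growth factors that were higher (log2 fold change 2.29 ± 0.39 SE, adjusted p = 0.0159). Coagulation genes were higher in 8 of 20 cases and lower in none. F10 had 1051 and 659.9 CPM in animals 10 and 11, against 241 and 314 CPM in animals 2 and 3 (log2 fold change 1.62 ± 0.23 SE, adjusted p = 0.00929), and the 3 fibrinogen chains Fga, Fgb and Fgg, which hepatocytes make, were among the 8, beside the hepatocyte sums given above. Of the marker lists for other cells, the neutrophil list had 3 of 10 tested members higher, the sinusoidal endothelium list 2 of 8, the NK list 2 of 6, the erythroid list 2 of 3, the T cell list 1 of 9, the stellate list 1 of 3, the platelet list 1 of 3, the cholangiocyte list 1 of 2 and the mast cell list its 1 tested member, none of them with a member lower. The hepatocyte list had 2 of 14 higher and 1 lower and the dendritic cell list 1 of 10 higher and 1 lower. The B cell list had 0 of 9 higher and 2 lower, the Kupffer cell list 0 of 10 higher and 1 lower, and the only tested eosinophil gene was not called. Some of these calls were lost in another test of the same animals. Among those higher, the endothelial gene Stab2 was lost in DESeq2 (adjusted p = 0.0557) and limma voom (adjusted p = 0.148). Oit3, also endothelial, was lost in voom (adjusted p = 0.138), and the hepatocyte gene Mup20 in DESeq2 (adjusted p = 0.1602) and voom (adjusted p = 0.05505). Among those lower, the B cell gene Cd79b was lost in DESeq2 (adjusted p = 0.0542). The part of those cells in the counts was not tested.

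**Figure D5:**
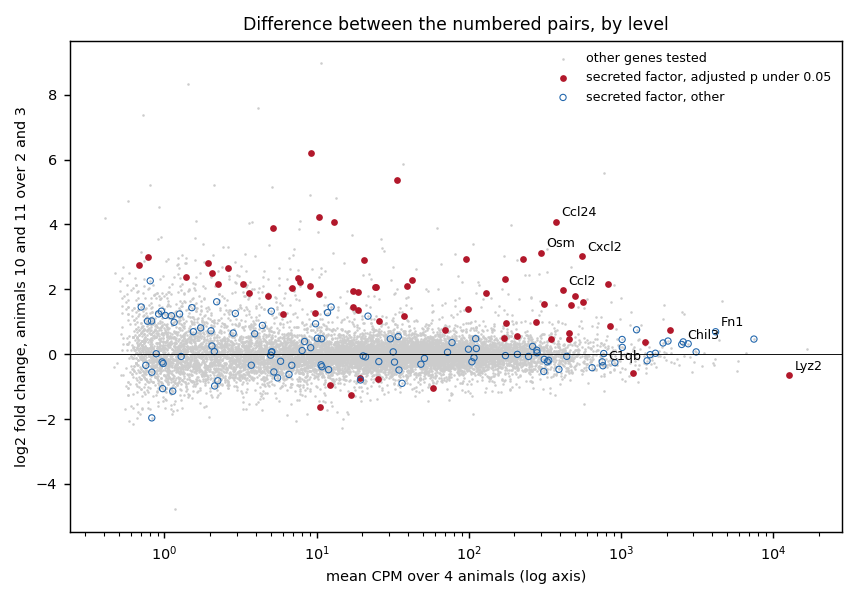
Log2 fold change of animals 10 and 11 over animals 2 and 3 against mean CPM over 4 animals (log axis) for 12338 genes tested, with secreted factors marked (filled where the adjusted p is under 0.05). Called secreted factors lie mostly above 0, with Ccl24 at 4.09 and Osm at 3.13, while Lyz2 lies at -0.65.

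Transcription factors were called higher in 29 of 135 cases (21.5%, beside 7.75%) and lower in 12 (8.89%, beside 6.81%). The AP-1 and ATF list holds immediate early genes, which cells switch on within minutes of a stimulus, and 10 of its 18 members were higher and 0 lower. Fos had 3255 and 3898 CPM in animals 10 and 11, against 1546 and 1341 CPM in animals 2 and 3 (log2 fold change 1.31 ± 0.13 SE, adjusted p = 0.00382). Atf3, a stress-induced repressor, had 1321 and 1609 CPM in animals 10 and 11, against 385 and 286 CPM in animals 2 and 3 (log2 fold change 2.13 ± 0.17 SE, adjusted p = 0.00215). Nr4a1 had 1904 and 3280.2 CPM in animals 10 and 11, against 1320.3 and 1101 CPM in animals 2 and 3 (log2 fold change 1.10 ± 0.24 SE, adjusted p = 0.0313), a call lost without animal 3 (adjusted p = 0.0668). Dusp1, a phosphatase that ends stress kinase signals, had 3252 and 4056 CPM in animals 10 and 11, against 1666 and 1398 CPM in animals 2 and 3 (log2 fold change 1.25 ± 0.14 SE, adjusted p = 0.00567), and Zfp36 had a log2 fold change of 1.64. Of 8 interferon regulatory factors 0 were higher (beside 7.75% of all genes) and 1, Irf7, was lower (beside 6.81%). In a list of 8 these counts lie near the shares of all genes. Irf7 had 356 and 366 CPM in animals 10 and 11, against 584 and 451 CPM in animals 2 and 3 (log2 fold change -0.52 ± 0.13 SE, adjusted p = 0.044). That call was lost without animal 10 (adjusted p = 0.0694), without animal 2 (adjusted p = 0.202) and in a fit of all 8 animals of the study (adjusted p = 0.0515). Without animal 3, 18 factors were higher, and the factors called lower numbered 4 to 5 without animal 10, 2 or 3 and 30 without animal 11.

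The bases upstream of Fos, Dusp1 and Nr4a1 are shown since these genes moved together and their starts are known to answer the cAMP and calcium pathway. The windows and build are those given above, and capitals mark TGACG or its reverse complement, the core bound by CREB factors, where matches on opposite strands may overlap.
Fos (chr12:85473640-85473889, plus strand): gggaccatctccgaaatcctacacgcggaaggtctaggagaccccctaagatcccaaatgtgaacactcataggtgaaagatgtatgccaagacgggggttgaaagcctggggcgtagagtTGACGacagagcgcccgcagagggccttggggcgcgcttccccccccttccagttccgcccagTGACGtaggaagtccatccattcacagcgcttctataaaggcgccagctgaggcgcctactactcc
Dusp1 (chr17:26508473-26508722, minus strand): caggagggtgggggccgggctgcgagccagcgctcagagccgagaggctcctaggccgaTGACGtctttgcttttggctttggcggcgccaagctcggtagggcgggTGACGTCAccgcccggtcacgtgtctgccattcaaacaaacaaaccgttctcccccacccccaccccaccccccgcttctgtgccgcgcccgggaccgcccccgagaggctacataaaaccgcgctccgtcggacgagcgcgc
Nr4a1 (chr15:101266596-101266845, plus strand): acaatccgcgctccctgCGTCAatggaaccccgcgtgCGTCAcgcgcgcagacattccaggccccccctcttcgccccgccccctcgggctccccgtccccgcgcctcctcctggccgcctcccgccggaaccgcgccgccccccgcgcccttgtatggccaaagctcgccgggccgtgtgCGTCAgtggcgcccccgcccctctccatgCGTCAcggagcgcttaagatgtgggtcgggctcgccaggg
Fos holds 2 matches, Dusp1 holds 3, with an overlapping pair that forms a palindrome, and Nr4a1 holds 4. Of 27025 genes, 17.8% hold that core in such a window, as do 28.4% of 8374 expressed genes, 30.6% of 742 genes called higher and 19.1% of 654 called lower. Of 12 matched AP-1, ATF, EGR and NR4A factors called higher, 7 hold it (58.3%). The motif was chosen with these sequences in view, and no binding was measured.

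Receptors were called higher in 28 of 228 cases (12.3%, beside 7.75%) and lower in 38 (16.7%, beside 6.81%). Among paired immune receptors 11 of 33 were lower and 4 higher. Treml4 had 149.7 and 248 CPM in animals 10 and 11, against 395 and 435 CPM in animals 2 and 3 (log2 fold change -1.06 ± 0.22 SE, adjusted p = 0.0258). Cx3cr1 had 387 and 593 CPM in animals 10 and 11, against 1057 and 1073 CPM in animals 2 and 3 (log2 fold change -1.12 ± 0.19 SE, adjusted p = 0.0149). Cd14 had 671 and 994 CPM in animals 10 and 11, against 345 and 277 CPM in animals 2 and 3 and was higher (log2 fold change 1.42 ± 0.20 SE, adjusted p = 0.00877). Ccr2, Csf1r, Itgam and Ly6c2 were not called, with adjusted p-values of 0.395, 0.101, 0.773 and 0.085. Lyz2 was called lower (log2 fold change -0.65 ± 0.13 SE, adjusted p = 0.0254), which was lost in a fit of all 8 animals of the study (adjusted p = 0.577). The log2 fold change in that fit was likewise -0.65. That fit adds the Cre-bearing animals, whose titles read LysM, so its adjusted p does not measure the spread of the control animals alone. The part of the added animals in the lost call was not tested. The receptors called lower numbered 19 without animal 2 and likewise without animal 3.

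At that same level or more, the largest decreases in animals 10 and 11 were in Hpgd, of the Kupffer cell list, and Ace, of the Ly6Clo list. Hpgd had 39.0 and 53.7 CPM in animals 10 and 11, against 158 and 173 CPM in animals 2 and 3 (log2 fold change -1.84 ± 0.15 SE, adjusted p = 0.00215). Ace had 231 and 361 CPM in animals 10 and 11, against 888 and 811 CPM in animals 2 and 3 (log2 fold change -1.52 ± 0.20 SE, adjusted p = 0.00765). Of 12 Ly6Clo genes tested, 8 were lower (beside 6.81% of all genes), and the 2 that were higher (beside 7.75%) were Nr4a1 and the lipid carrier Fabp4. The list summed to 3988 and 6291 CPM in animals 10 and 11, against 6307 and 6277 CPM in animals 2 and 3, where animal 10 alone stood low. Much of that sum was Nr4a1, which went the other way. It had 1904 and 3280 CPM in animals 10 and 11, against 1320 and 1101 CPM in animals 2 and 3. The sum therefore hides the lower values of other members in animal 11. By the same test, of 19 tested Ly6Chi identity genes, 5 were lower and 0 higher, Plac8 with 754 and 797 CPM in animals 10 and 11, against 1352 and 1385 CPM in animals 2 and 3 (log2 fold change -0.82 ± 0.09 SE, adjusted p = 0.00482) among them. The rest of the 8 largest decreases were Mettl7a1, a methyltransferase-like protein, Ccnd2, a cyclin, Rnase6, an antimicrobial ribonuclease, Cd81, a tetraspanin, Nectin1, an adhesion molecule, and Herpud1, which serves protein degradation in the endoplasmic reticulum, at log2 fold changes of -1.44 to -1.29. The call of Cd81 was lost without animal 10 (adjusted p = 0.0597), without animal 2 (adjusted p = 0.0967) and in the DESeq2 test (adjusted p = 0.0877), and that of Nectin1 without animal 3 (adjusted p = 0.0657).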

How the data were processed

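Ly6Chi monocytes of 4 control animals were read from 1 table of the study. The authors deposited raw counts per gene, 1 column an animal, and beside them 8 columns of normalised signal, which the authors deposited as each count divided by 1 factor a library and which were not used. Named in the submitters' processing notes, without roles, are the build GRCm38, the trimmer cutadapt, the aligner STAR (2.7.3a), the counter HTSeq (0.12.4) and the package DESeq2 (1.26.0). Strand use is not given in the sources used here, so overlapping genes may share reads. Every row of the table reaches 6 counts in some of the 8 animals. Of 15336 gene rows, 15318 are in the GENCODE M21 annotation, whose exon unions gave lengths, and 1 row for cre was left out.

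CPM used trimmed mean of M-values factors. The label pairs were compared in R 4.3.3 with the edgeR 4.0.16 quasi-likelihood test, two-sided, with Benjamini-Hochberg adjustment over 12338 genes kept by filterByExpr (minimum count 10, minimum total 15) and a threshold of 0.05. log2 CPM used a prior count of 2. Nothing in the labels says that replicates are independent beyond being separate animals. Floors cover the error of counting alone, because reads that lack molecular identifiers can be copies of 1 molecule. The code was tested on simulated data.

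The members, the gene lists and the motifs were chosen with earlier results of these data known. Of the 969 genes on the lists, 209 had no row. Some members with a row are counted but their values are not reported here. The text names the 5 defining genes, the most abundant genes, the top and lowest members of each list, the most and least variable genes, and the genes with the largest called differences. Genes named outside these were chosen after their values were seen. Alternatives were relative log expression, upper-quartile and unscaled factors, other thresholds, filters, DESeq2 1.42.0, limma 3.58.1 voom, all 8 animals in 1 fit, and leaving out each animal.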

Additional observations from a re-analysis of the deposited data

Results flagged for a closer look

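Among 335 named genes with a mean of 1 CPM or more, 13 (3.88%) had 1 animal far from the other 3, by the gap of the highest or lowest animal to its neighbour as a share of the whole range (Dixon's test at the 95% level). Chance flags about 1 in 20 such groups of 4. No explanation was tested.

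Animal 11 was the high one for the endothelial genes Stab2 (gap 0.858), Oit3 (0.845), Clec4g (0.856), Tek (0.918) and Sox18 (0.900), with Clec4g, a lectin of sinusoidal vessels, at 4.09 and 17.1 CPM in animals 10 and 11, against 1.91 and 2.35 CPM in animals 2 and 3. It was also high for the B cell gene Ms4a1 (0.980). The summed sinusoidal endothelium markers (0.929) and stellate cell and fibroblast markers (0.902) were high in animal 11 too, the second with 3.64 and 9.48 CPM in animals 10 and 11, against 3.83 and 3.22 CPM in animals 2 and 3.

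Animal 10 stood low for the summed Ly6Clo monocyte markers (0.987), a sum that holds Nr4a1, whose level was highest in animal 11. It also stood low for the debris receptor Lrp1 (0.865), with 2553 and 2965 CPM in animals 10 and 11 against 2923 and 2909 CPM in animals 2 and 3, and for the oxidase subunit Cyba (0.914). It was high for the growth regulator Myc (0.850), with 130.3 and 94.0 CPM in animals 10 and 11 against 90.2 and 96.2 CPM in animals 2 and 3.

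Animal 2 was high for Fcgr1 (0.972), with 443 and 445 CPM in animals 10 and 11 against 549 and 442 CPM in animals 2 and 3, high for the TNF ligand Tnfsf8 (0.830) and low for Prpf38b (0.901). Animal 3 was high for S100a11 (0.942), with 117 and 119 CPM in animals 10 and 11 against 119 and 156 CPM in animals 2 and 3.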

How the results depend on the processing

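No paired analysis was possible because no animal number occurs in both label pairs. The genes at 1 CPM or more in each animal numbered 10887 to 10905 under other scalings, 8829 at a threshold of 5 CPM and 11830 at 0.5 CPM, and the 4 class counts stayed within 1.5 times. The median CV was 10.4% for genes of 5 CPM or more and 10.4% to 12.3% when 1 animal was left out.

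Between the pairs, the genes called higher numbered 404 to 1407 and those called lower 318 to 1248 when 1 animal was left out. At an adjusted p under 0.01, a setting chosen after seeing the data, 208 were higher and 111 lower. DESeq2 called 907 higher and 734 lower, voom 879 and 817, no filter 836 and 795, and unscaled totals 822 and 1022. Of 161 named genes compared, 0 reversed under any setting, and 154 of 1912 single results lost their call. Each setting reuses the libraries in which genes were named for their calls, so an unchanged direction is no separate support. With 2 animals a pair, a lone animal left by omission was assumed to vary like the others. The mean level of 4 steady genes (Chmp4b, Clptm1, Sgta and Tax1bp1) moved beyond their small SD when an animal was left out.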
